A study of Rattus norvegicus with 6 samples.

Results

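The nuclear-encoded subunits of the mitochondrial respiratory chain and ATP synthase were followed in rat skeletal muscle with acute osteofascial compartment syndrome (ACS). Members were every gene whose symbol starts with Nduf followed by a, b, c, s or v, with Uqcr, with Cox4 to Cox8 or with Atp5, together with Sdha to Sdhd, Cyc1 and Cycs. Symbols with a hyphen were left out. This gave 96 of the 30957 genes in the table (90 different symbols): 33 of complex I, 7 complex I assembly factors that share the Nduf prefix, 4 of complex II, 9 of complex III, 2 rows of cytochrome c, 22 of complex IV and 19 with ATP synthase (complex V) symbols. Of these, 86 had enough counts to be tested.

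The tissue was flexor digitorum longus, which bends the toes of the hind foot, from wild-type Sprague-Dawley rats. The control group held 3 libraries of muscle at 0 h, and the ACS group held 3 libraries of muscle at 18 h after an elastic loop had been tightened at the knee, so injury and time of sampling cannot be told apart. In ACS, pressure builds up in a muscle compartment bounded by fascia and limits blood flow to it. The sample titles set the groups, since all 6 libraries carry ACS in the treatment field, and rat ages are not given. Nothing in the labels ties each library to a rat of its own. The p-values therefore weigh the groups against the spread between these libraries alone, and that spread may be technical.

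As background, electrons from NADH enter the chain at complex I and electrons from succinate at complex II. They pass through complex III and cytochrome c to complex IV, which reduces oxygen, and the proton gradient built along the way drives ATP synthase. A few subunits of complexes I, III, IV and V are encoded by the mitochondrial chromosome and all others by nuclear genes, many of which are activated together by the factors NRF1, GABP (which binds ETS motifs), YY1 and the estrogen-related receptors (ERR) with the coactivator PGC-1. Several complex IV subunits exist as isoform pairs, 1 used in heart and skeletal muscle (Cox6a2, Cox8b) and 1 in most tissues (Cox6a1, Cox8a).

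The promoter letters of a few chosen members are printed here beside this background. RefSeq promoter windows (rat build GRCr8, 250 bases before the start of the gene to 50 after) were found for 71 of the 83 symbols tested, and the 100 bases before the start are printed 5′ to 3′ on the strand of the gene, with motif matches in capitals. Cox8a and Cox8b are the ubiquitous and muscle isoforms of one subunit, Cox6a2 had the highest level of all members, Atp5a1 and Atp5o encode ATP synthase subunits, and Ndufb7 was among the complex I members with the smallest p.
Cox8a (chr1:213833624-213833723, minus strand): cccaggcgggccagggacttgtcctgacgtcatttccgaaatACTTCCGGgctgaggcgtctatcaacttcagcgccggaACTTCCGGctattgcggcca
Cox8b (chr1:205408274-205408373, minus strand): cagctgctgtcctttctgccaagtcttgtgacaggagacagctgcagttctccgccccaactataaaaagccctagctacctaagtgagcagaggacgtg
Cox6a2 (chr1:192219717-192219816, minus strand): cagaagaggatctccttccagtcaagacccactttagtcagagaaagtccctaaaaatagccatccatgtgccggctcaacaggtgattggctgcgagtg
Atp5a1 (chr18:73567437-73567536, plus strand): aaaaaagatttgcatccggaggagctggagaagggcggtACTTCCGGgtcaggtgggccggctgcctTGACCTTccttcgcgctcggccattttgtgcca
Atp5o (chr11:44657484-44657583, minus strand): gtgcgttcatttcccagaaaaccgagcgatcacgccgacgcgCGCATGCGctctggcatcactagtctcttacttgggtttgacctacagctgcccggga
Ndufb7 (chr19:41477292-41477391, minus strand): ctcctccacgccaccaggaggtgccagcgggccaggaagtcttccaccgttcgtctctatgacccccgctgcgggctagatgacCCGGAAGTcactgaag

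The capitals mark a pair of ETS matches in Cox8a, an ETS and an ERR match in Atp5a1, an NRF1 match in Atp5o and an ETS match in Ndufb7. The printed windows of the muscle isoforms Cox8b and Cox6a2 hold no match, which is so for most members. Windows with a match are thus more frequent among those printed than among all members. Of the 71 members, 6 hold an NRF1 match in these 100 bases, 7 an ETS match, 4 an ERR match and 0 a YY1 match. The motifs searched on both strands were CGCATGCG for NRF1, CCGGAAGT for ETS factors, AAGATGGC for YY1 and AAGGTCA for ERR; none of them contains another, and the NRF1 motif is its own reverse complement. Over the full 300-base windows, NRF1 matched in 10 of the 71 members (14.1%, against 1.66% of all 33469 promoters and 2.11% of the 21851 of protein-coding genes). ETS matched in 8 (11.3%, against 3.81% of all promoters), YY1 in 14 (19.7%, against 3.17%) and ERR in 9 (12.7%, against 4.61%). Of the 14 members with a YY1 match, 12 had one that reached past the start of the gene. A match describes letters, not a site in use, and the absence of one says only that these letters are not in the window.

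Across the chain, nuclear-encoded members were measured at lower levels in ACS muscle, but no single member passed the test. The estimated log2 fold change of ACS against control was below 0 for 85 of the 86 tested members, against 6526 of all 12873 tested genes. The median was -0.55 over the members and -0.01 over all tested genes. By edgeR's quasi-likelihood test with Benjamini-Hochberg adjustment over all tested genes, 0 of 86 members were called at an adjusted p under 0.05, in a comparison that called 4.14% of all genes (442 higher and 91 lower, the latter 0.707%). The smallest adjusted p of a member was 0.162. At an unadjusted p under 0.05 there were 5 members, all lower (Ndufa8, Ndufb7, Sdhb, Uqcrq and Cox4i2), where 7.98% of all genes were lower by that rule, so the members' share did not exceed the background. DESeq2 and limma-voom also called 0, with 8 members each at an unadjusted p under 0.05, where 19.1% and 22.8% of all genes were so in either direction. Limma on FPKM called 0, with 25 of 87 members at an unadjusted p under 0.05 against 26.5% of all genes.

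Every ACS library lay below every control library in 28 of the 86 members (32.6%), against 14.8% of all tested genes; such members are called separated here. The single member with a positive estimate was the assembly factor Ndufaf4, in which every ACS library lay above every control library. In the other 57 members the groups overlapped. These positions, unlike the edgeR test, take no account of how far apart the ACS libraries were, and that distance was large.

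**Figure D1:**
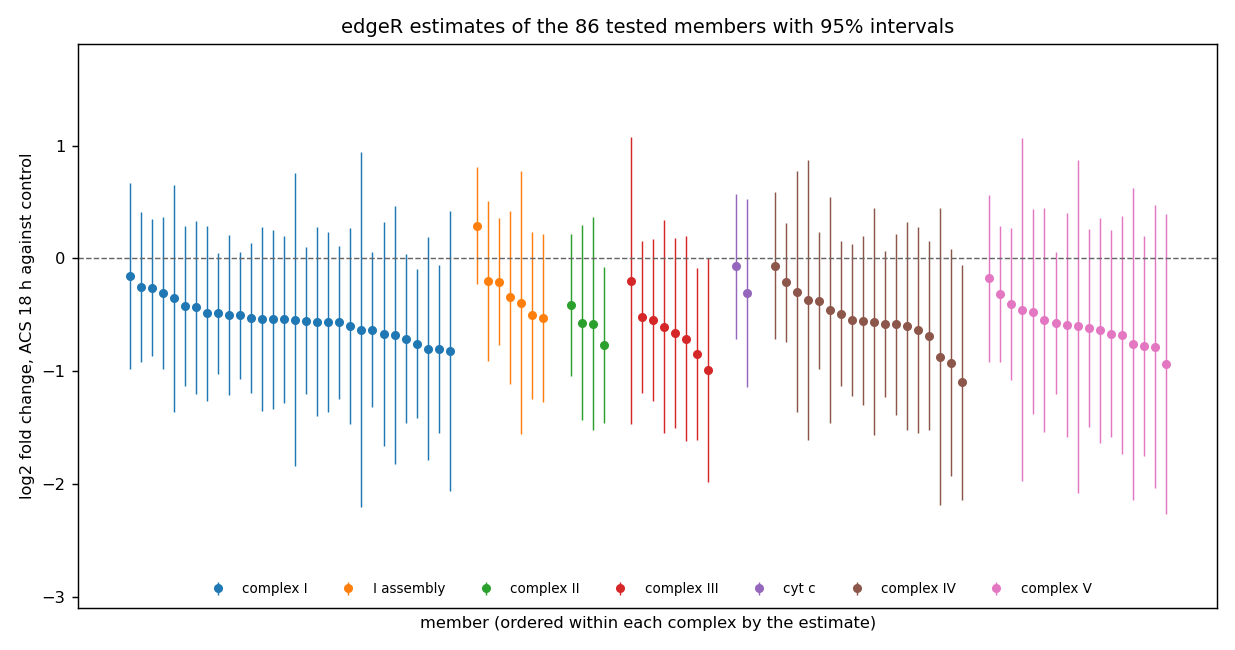
Each point is the edgeR log2 fold change (vertical axis) of 1 of the 86 tested members, ordered within its complex, and bars are 95% intervals. Points lie below 0 for 85 members, the exception being Ndufaf4 among the assembly factors at 0.29, and most intervals cross 0.

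The ACS libraries stood in a graded order. Levels are given as CPM (counts scaled to library size) scaled by TMM, a factor per library that centres the bulk of genes. Relative to the control mean on a log2 scale, the median member stood at 41.7% of control in ACS 1, 69.6% in ACS 2 and 93.8% in ACS 3. ACS 1 lay below every control library in 82 of 86 members, ACS 2 in 75 and ACS 3 in 32. Of all 12873 tested genes, 5544, 4684 and 4207 did so, and for ACS 3 the member share was near that of all genes. ACS 1 was the lowest of all 6 libraries in 71 members (82.6%, against 32.8% of all tested genes), and the order ACS 1 below ACS 2 below ACS 3 held in 59 (68.6%, against 23.1%). The control libraries had member medians of 0.03, 0.02 and -0.06 on the log2 scale. Each member is set against the mean of these same libraries, which draws such medians towards 0. Single members could stand further apart, as Atp5i did at -0.41, -0.73 and 1.14 in control 1, 2 and 3.

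**Figure D2:**
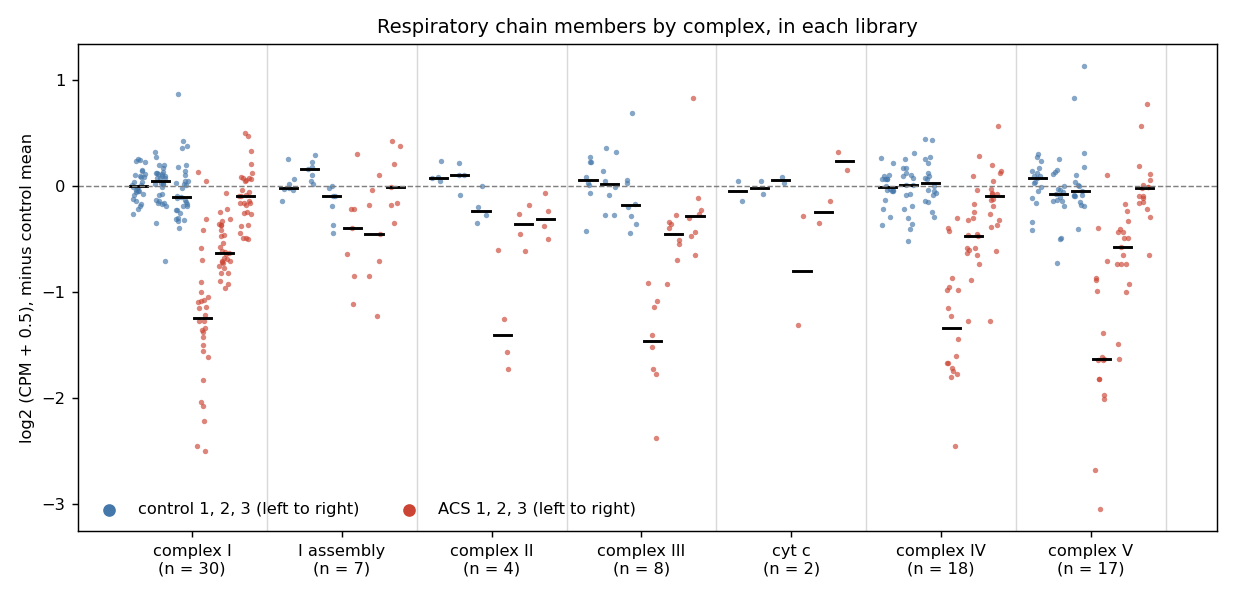
Each point is 1 tested member in 1 library, as log2 (CPM + 0.5) minus the mean of the control libraries (vertical axis), grouped by complex with the 6 libraries from left to right; black lines are medians. ACS 1 has the lowest median in every group except the assembly factors, where ACS 2 is lowest, and ACS 3 medians run from -0.31 in complex II to 0.24 in cytochrome c.

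Summed over all 96 rows, members took 1.87%, 1.92% and 1.85% of all counts in the control libraries and 0.526%, 1.24% and 1.43% in ACS 1, 2 and 3. All ACS shares were below all control shares. Mitochondrial-chromosome genes took 43.4% of the counts of ACS 1, against 7.52% to 8.60% in the controls, 4.82% in ACS 2 and 5.33% in ACS 3, which by itself lowers every other share of ACS 1. Among counts outside the mitochondrial chromosome the member shares were 2.05%, 2.09% and 2.00% in control and 0.930%, 1.304% and 1.51% in ACS, with the groups still apart. With TMM factors computed without mitochondrial-chromosome and haemoglobin genes, the median log2 fold change of the members was -0.58 and 34 of 86 were separated, as were 15.7% of all genes.

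Library totals ranged from 14340865 to 21003928 counts. Muscle identity was clear, since 10 tested fibre genes such as Acta1, Ckm and Neb summed to between 114951 and 141442 CPM in control and between 84272 and 159469 in ACS. In ACS 1 the median fibre gene stood at 56.2% of control, in ACS 2 at 92.5% and in ACS 3 at 122.6%; 0 of the 10 passed the test. All 6 tested neutrophil genes of 8 listed passed as higher in ACS and summed to between 2.61 and 7.97 CPM in control and between 41.6 and 412.6 in ACS, highest in ACS 1, while the listed granule gene Camp was at 0 in control. Macrophage genes (0 of 7 called) summed to between 43.2 and 74.2 CPM in control and between 109.2 and 1741 in ACS, red cell genes (2 of 4 called higher) to between 445.2 and 1221 and between 1747 and 10321, fibroblast genes (0 of 5) to between 689.8 and 1076 and between 2318 and 2960. Endothelial genes (0 of 5) spanned 197.2 to 290.1 CPM in control and 134.3 to 445.6 in ACS, and adipocyte genes (0 of 4) 46.7 to 90.8 and 25.8 to 252.4; Col1a2 was listed at 0 in all 6 libraries. In bulk samples fewer cells of a type and less RNA per cell cannot be told apart, and the part of this shift in the member values was not tested.

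Complex I, the NADH dehydrogenase, had 30 tested members, all with estimates below 0 and a median log2 fold change of -0.54. In 10 of them (33.3%, against 14.8% of all tested genes) every ACS library lay below every control library. The most abundant by FPKM was Ndufb9, an accessory subunit, at 254.1, 315.8 and 200.8 CPM in control and 262.3, 197.9 and 186.4 CPM in ACS. Here ACS 1 lay within the control range, unlike in most members, and the log2 fold change was -0.25 (SE 0.29, adjusted p = 0.628). Ndufa8, a subunit of the intermembrane-space side, read 77.2, 84.5 and 64.3 CPM in control and 30.7, 45.3 and 57.7 in ACS. Its groups did not overlap, and its estimate of -0.76 (SE 0.29) had the smallest adjusted p of all members, 0.162 by edgeR.

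Ndufb7, an accessory subunit with an ETS match in its promoter, had 81.9, 71.1 and 58.8 CPM in control and 23.5, 48.1 and 49.6 CPM in ACS. The ACS values were all lower, ACS 1 by most, with a log2 fold change of -0.80 (SE 0.33, adjusted p = 0.184). Ndufb2 gave 43.4, 44.5 and 46.4 CPM against 15.5, 28.6 and 37.9 CPM. Its control libraries were nearly equal and the ACS libraries followed the graded order, with an estimate of -0.71 (SE 0.33, adjusted p = 0.234). The remaining members with full separation were Ndufs3 and Ndufs7, core subunits of the arm that passes electrons to quinone, and Ndufa9, Ndufa11, Ndufa13, Ndufc2 and Ndufs5, which are accessory. The estimate nearest 0 in the complex was that of Ndufb10, at -0.16, with ACS 1 and ACS 3 inside the control range.

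The 7 Ndufaf assembly factors, which help build complex I without staying in it, lay closer to control than the subunits. Their median log2 fold change was -0.35 and none had every ACS library below every control library, as 14.8% of all tested genes did. In ACS 1 their median stood at 76.3% of control, where that of the complex I subunits stood at 42.3%. The 35 tested assembly factors outside the symbol rule, which serve several complexes, did not share this. Their median log2 fold change was -0.54, and in ACS 1 their median stood at 48.0% of control. Differences between these groups were not tested. Ndufaf3, the most abundant Ndufaf factor per length, read 40.1, 38.0 and 24.4 CPM in control and 15.2, 29.5 and 26.2 CPM in ACS. Control 3 lay below ACS 2 and ACS 3, so the groups overlapped (log2 fold change -0.53, SE 0.33, adjusted p = 0.362).

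Ndufaf6 read 11.6, 13.6 and 8.42 CPM in control and 5.90, 7.92 and 9.82 CPM in ACS, with overlap through ACS 3 and an estimate of -0.51 (SE 0.32, adjusted p = 0.381). Ndufaf4 went against all other members. Its levels were 27.7, 29.5 and 28.0 CPM in control and 35.3, 30.7 and 38.4 CPM in ACS, an estimate of 0.29 (SE 0.23, adjusted p = 0.467). Scaling decided that direction, because with library totals in place of TMM factors the estimate was -0.03, and with FPKM it was -0.04.

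Complex II (succinate dehydrogenase) is encoded by nuclear genes alone and has 4 subunits, all tested and all with estimates below 0 (median -0.57). Sdhb, the iron-sulfur subunit and the most abundant per length, read 286.3, 321.1 and 229.4 CPM in control and 115.8, 180.3 and 195.4 CPM in ACS. The groups did not overlap (log2 fold change -0.77, SE 0.30, adjusted p = 0.171). Sdha, the flavoprotein, was also separated, with 648.4, 656.1 and 534.5 CPM against 402.9, 508.6 and 470.5 CPM. Its estimate of -0.41 (SE 0.28, adjusted p = 0.401) was the smallest in size of the complex. The membrane anchors Sdhc and Sdhd overlapped between groups; Sdhd read 280.2, 251.1 and 266.4 CPM against 89.7, 194.6 and 253.6 CPM, with ACS 3 inside the control range.

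Complex III, which hands electrons from quinol to cytochrome c, had the lowest class median, -0.63 over 8 tested members. Uqcr10, a small supernumerary subunit, read 107.4, 111.6 and 117.1 CPM in control and 21.2, 76.5 and 71.4 CPM in ACS. All ACS libraries were lower and ACS 1 was far below the others, giving -0.99 (SE 0.44, adjusted p = 0.214), the second most negative estimate of all members. Uqcrq, which sits next to cytochrome b, read 149.7, 181.2 and 103.7 CPM against 53.1, 87.1 and 101.9 CPM. Control 3 and ACS 3 nearly touched there (log2 fold change -0.84, SE 0.33, adjusted p = 0.173).

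The catalytic subunits of complex III differed in separation rather than in direction. Cyc1 (cytochrome c1) read 266.3, 208.4 and 192.6 CPM in control and 64.3, 154.5 and 188.4 CPM in ACS, without overlap, at -0.71 (SE 0.40, adjusted p = 0.313). Uqcrfs1, the Rieske iron-sulfur protein and the most abundant per length, read 368.1, 259.3 and 320.6 CPM against 94.5, 238.4 and 290.7 CPM. ACS 3 lay between control libraries, and the estimate was -0.60 (SE 0.41, adjusted p = 0.412). The core subunit Uqcrc2 was separated and its partner Uqcrc1 was not.

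Cytochrome c itself (Cycs), the mobile carrier whose release from mitochondria also starts apoptosis, stood in 2 rows. The row on chromosome 4, with several exons, read 117.9, 108.4 and 116.3 CPM in control and 45.8, 103.5 and 127.2 CPM in ACS. Only ACS 1 was far from control, and the estimate was -0.31 (SE 0.37, 95% interval -1.14 to 0.53, adjusted p = 0.637). The row on chromosome 18 spans no more than its own length of 318 bases, as a copy with 1 exon does, yet held more counts (18872 in all against 12253). It read 152.8, 174.0 and 178.5 CPM against 137.9, 132.1 and 210.8 CPM, an estimate of -0.07 (SE 0.28, adjusted p = 0.899).

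In 2 other genes as well, a row with 1 exon held more counts than the row with several exons. For Cox7a2 a row of 252 bases on chromosome 14 held 7726 counts and the row of several exons on chromosome 8 held 2920, and for Cox6b1 a row of 261 bases on chromosome 2 held 4913 and that on chromosome 1 held 3776. How reads that match several places were counted is not stated, so levels of these single rows are uncertain. Their directions were alike between rows, with -0.69 and -0.63 for Cox7a2 and -0.59 and -0.49 for Cox6b1 on the log2 scale.

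Complex IV (cytochrome c oxidase) was described by isoform, since its muscle and ubiquitous subunits are separate genes. FPKM values, which divide by gene length and by the library's total, were used to compare levels between genes. Cox6a2, the muscle isoform of subunit 6a, had the highest level of all members in both groups, with 1781 ± 40.7 FPKM in control (SD, n = 3). Its ubiquitous partner Cox6a1 had 32.5 ± 4.32 FPKM. In CPM, Cox6a2 read 792.2, 759.7 and 715.2 in control and 225.7, 737.9 and 692.6 in ACS. ACS 1 alone was far below control, ACS 2 lay inside the control range and ACS 3 just under it (log2 fold change -0.45, SE 0.44, 95% interval -1.45 to 0.55, adjusted p = 0.564).

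Cox6a1 read 16.6, 17.9 and 13.3 CPM in control and 11.7, 19.4 and 14.6 CPM in ACS. The groups overlapped at -0.06 (SE 0.29, 95% interval -0.72 to 0.59, adjusted p = 0.910), and without ACS 1 the estimate was 0.09. The muscle to ubiquitous ratio Cox6a2/Cox6a1 was 55.1, 48.9 and 62.0 in the control libraries and 22.3, 43.8 and 55.0 in ACS 1, 2 and 3. ACS 3 lay inside the control range, and the difference of -0.55 in log2 ratio had a two-sided exact permutation p of 0.2 (0.3 adjusted over the 2 pairs tested), where 3 against 3 libraries cannot go below 0.1.

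Cox8b, the muscle isoform of subunit 8, read 132.5, 102.7 and 183.8 CPM in control and 24.4, 56.1 and 148.5 CPM in ACS. ACS 1 and ACS 2 were below all controls and ACS 3 was above 2 of them, giving -0.87 (SE 0.58, adjusted p = 0.396). Without ACS 3 the estimate was -1.80 with an adjusted p of 0.0423 by edgeR. Cox8a, the ubiquitous isoform, read 18.6, 11.9 and 16.5 CPM against 4.49, 16.5 and 17.1 CPM. ACS 1 was low and the other ACS libraries lay within the control range (-0.30, SE 0.47, adjusted p = 0.727), and without ACS 1 the estimate was 0.10.

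The ratio Cox8b/Cox8a was 11.0, 13.4 and 17.3 in control and 8.44, 5.27 and 13.5 in ACS. ACS 3 again lay among the controls, and the log2 ratio differed by -0.70 (two-sided exact permutation p = 0.3, adjusted 0.3). The ratio of Cox6a2 was thus lowest in ACS 1 and that of Cox8b in ACS 2. The pair Cox7a1 and Cox7a2 was not analysed here.

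**Figure D3:**
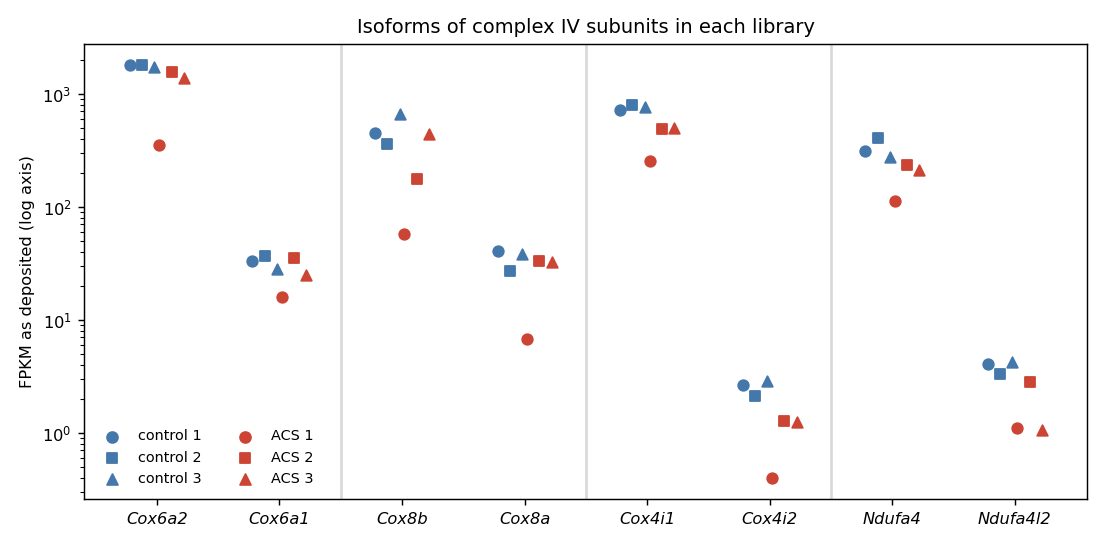
Deposited FPKM (vertical axis, log scale) of complex IV isoforms in each library, with shapes for replicate numbers and colours for group. Muscle isoforms Cox6a2 and Cox8b stand above Cox6a1 and Cox8a in every library, and the low-oxygen isoforms Cox4i2 and Ndufa4l2 lie lowest, with all ACS points below all control points.

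Cox4i1 is the common isoform of subunit 4 and Cox4i2 the isoform known for induction by low oxygen in lung and some other tissues. Cox4i1 read 482.0, 522.8 and 485.0 CPM in control and 252.3, 359.8 and 385.3 CPM in ACS. All ACS libraries were lower (log2 fold change -0.58, SE 0.28, adjusted p = 0.257). Cox4i2 was scarce, with 2.58, 1.98 and 2.64 CPM against 0.561, 1.34 and 1.40 CPM. It too was lower in every ACS library, and its estimate of -1.10 (SE 0.46, adjusted p = 0.192) was the most negative of all members.

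Ndufa4, named for complex I but now placed in complex IV, read 227.1, 286.5 and 189.2 CPM in control and 119.0, 185.1 and 177.1 CPM in ACS. Its groups were separated (-0.55, SE 0.30, adjusted p = 0.302). Ndufa4l2, a relative known as a target of the low-oxygen factor HIF-1, read 3.56, 2.81 and 3.47 CPM against 1.40, 2.68 and 1.06 CPM. It was lower in every ACS library as well, at -0.92 (SE 0.44, adjusted p = 0.246). Both isoforms known for low oxygen thus had lower, not higher, readings at 18 h in these libraries, and neither passed the test.

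Of the 18 tested members placed in complex IV, 7 were separated (38.9%, against 14.8% of all tested genes): the 4 just named, Cox6c, Cox7b and the chromosome 14 row of Cox7a2. Cox6c, the most abundant per length after Cox6a2 in the complex, read 314.3, 434.9 and 353.0 CPM in control and 295.1, 263.6 and 292.3 CPM in ACS. Here the ACS libraries were nearly equal, without the graded order of most members (-0.37, SE 0.27, adjusted p = 0.430). Cox7a2l, a supercomplex factor rather than a plain subunit, stood at -0.21 with overlapping groups.

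The Atp5 symbols had 17 tested rows, all with estimates below 0, a median log2 fold change of -0.60 and 5 fully separated (29.4%, against 14.8% of all tested genes). Of these, Atp5s and Atp5sl are now named for complex I assembly (DMAC2L and DMAC2), and without them 15 rows had the same median of -0.60, with 4 separated. In ACS 1 their median stood at 32.2% of control, lower than in any other complex, though the complexes were not tested against each other. Atp5b, the catalytic beta subunit and the most abundant of the complex, read 2426, 2750 and 2350 CPM in control and 961.2, 1890 and 2054 CPM in ACS. All ACS libraries were lower and followed the graded order (-0.62, SE 0.38, adjusted p = 0.366). Atp5e, the small epsilon subunit of the rotor stalk, read 310.8, 285.7 and 274.2 CPM against 73.5, 173.9 and 260.9 CPM, at -0.78 (SE 0.43, adjusted p = 0.305).

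Atp5o, the subunit that ties the catalytic head to the stator, read 213.0, 201.4 and 190.1 CPM in control and 56.7, 143.7 and 180.6 CPM in ACS. ACS 3 came closest to the controls (-0.67, SE 0.40, adjusted p = 0.351). Atp5g1, which encodes a subunit of the proton-turned ring, read 201.1, 162.0 and 150.9 CPM against 20.1, 102.3 and 146.2 CPM, an estimate of -0.93. Its relatives Atp5g2 and Atp5g3, which encode the same mature ring protein, had estimates of -0.47 and -0.76, and neither was separated. Atp5g1 and the ring genes are named here after their values were seen.

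Atp5sl was also separated, with 39.0, 41.5 and 34.4 CPM in control and 19.0, 33.9 and 24.3 CPM in ACS (-0.57, SE 0.28, adjusted p = 0.251). ACS 2 came close to the lowest control, and ACS 1 was again the lowest library. The inhibitor of ATP synthase that acts when the membrane potential is lost, Atpif1, is no member by its symbol. It read 25.6, 37.9 and 22.5 CPM in control and 65.3, 33.1 and 21.5 CPM in ACS, so ACS 1 was the highest of the 6 libraries where most subunits had their lowest value (0.48, SE 0.42, adjusted p = 0.518).

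In 10 rows the counts were too few for a test. Ndufa1, a complex I subunit that cells with a working complex need, was listed at 0 in all 6 libraries, and the rows of Atp5f1, the stator subunit b, held 33 and 0 counts in all. Such a 0 says only that the gene is listed at 0. Ndufb4l1, Cox6c1, Cox7b2 and Cox8c were also at 0, Cox6b2 held 25 counts, and second rows of Uqcr10 and Ndufa13 held 19 and 79.

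In ACS 1 alone, the 13 subunits encoded by the mitochondrial chromosome followed another course than their nuclear partners. The median nuclear-encoded member stood at 41.7%, 69.6% and 93.8% of control in ACS 1, 2 and 3. For these 13 subunits the median stood at 1166%, 64.4% and 88.5%. Their counts per member count were 4.46, 4.30 and 3.86 in control, 3.72 in ACS 2 and 3.50 in ACS 3, and 80.5 in ACS 1. The ACS 2 and ACS 3 ratios lay under all controls and ACS 1 stood far above. By edgeR 0 of the 13 were called, with 3 at an unadjusted p under 0.05, all 13 estimates above 0 and a median of 2.08. In ACS 2, 11 of the 13 lay below every control library, and in ACS 3, 8 did. The exceptions in ACS 2 were Mt-nd4 (1538 CPM against 926.9 to 1150 in control) and Mt-nd6 (824.1 against 526.1 to 726.0), both above every control. Mt-co1, the most abundant per length, read 37746, 37868 and 25989 CPM in control and 113606, 23104 and 22563 CPM in ACS (0.65, SE 0.72, adjusted p = 0.613)..

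**Figure D4:**
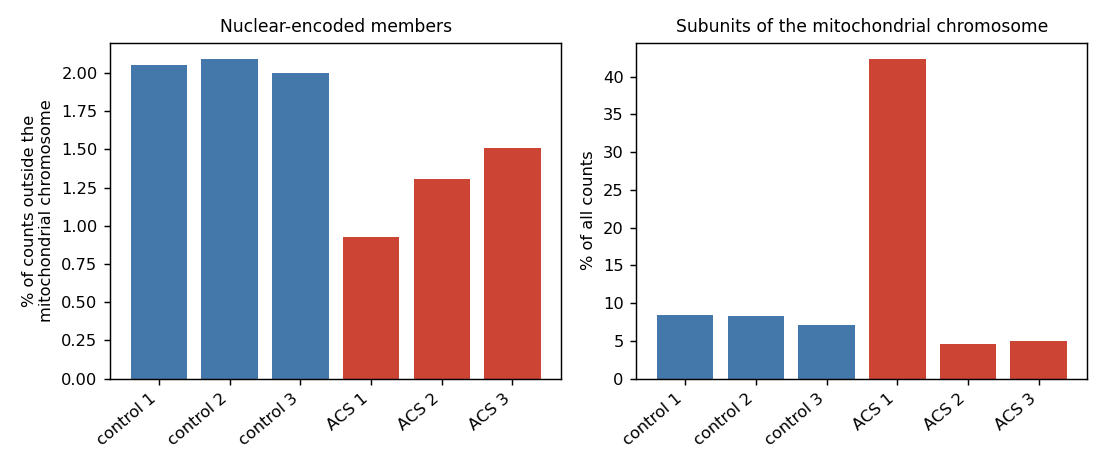
Left, the 96 nuclear-encoded members as a percentage of counts outside the mitochondrial chromosome in each library; right, the 13 mitochondrially encoded subunits as a percentage of all counts. The ACS bars are lower at left, from 0.930% to 1.51% against 2.00% to 2.09% in control, and ACS 1 stands apart at right at 42.4%.

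Further genes of the pathway were read from lists chosen by function. Of 35 assembly factors outside the symbol rule, which insert cofactors and chaperone subunits, 0 were called by edgeR (3 at an unadjusted p under 0.05). All 35 estimates were below 0, with a median of -0.54. Of the 35, 14 were separated, a larger share than the 14.8% of all tested genes. Ecsit, a complex I assembly factor and the highest of the list by mean control FPKM, read 151.3, 135.2 and 85.9 CPM in control and 48.2, 96.8 and 73.7 CPM in ACS. Control 3 lay below ACS 2, and the estimate was -0.77 (SE 0.34, adjusted p = 0.217). DESeq2, which called more genes over the whole table than edgeR did, called 1 of these factors as lower (Atpaf2). With ACS 3 left out, edgeR called 3 (Tmem126b, Bcs1l and Uqcc3). Of all genes, 19.1% had an unadjusted p under 0.05 by DESeq2 and 32.6% by edgeR without ACS 3. These counts of called factors are not set against the share of all genes called.

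Among 18 regulators of mitochondrial biogenesis, 2 rose, 1 fell and 15 did not pass. Nrip1, a corepressor known to restrain oxidative genes in muscle, read 60.4, 81.1 and 84.9 CPM in control and 226.2, 425.0 and 402.4 CPM in ACS. Every ACS library was far above every control, and it rose by a log2 fold change of 2.22 (SE 0.34, adjusted p = 0.0176). Pprc1, a coactivator of the PGC-1 family, read 26.7, 18.2 and 23.1 CPM against 116.4, 113.6 and 46.0 CPM and rose by 2.02 (SE 0.38, adjusted p = 0.0319). Esrrb, an estrogen-related receptor, was scarce, with 26, 15 and 15 counts in control and 1, 1 and 0 in ACS (adjusted p = 0.0375). Leaving out any 1 control library ended all of these calls, as it left 0 genes called in the whole table, and leaving out ACS 2 ended those of Pprc1 and Esrrb. Without control 3 and ACS 3 together, Pprc1 stayed past the threshold and Nrip1 and Esrrb did not.

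The coactivator Ppargc1b read 57.2, 46.6 and 37.9 CPM in control and 9.26, 7.62 and 24.1 CPM in ACS, separated but with an adjusted p of 0.0590 (log2 fold change -1.79, SE 0.45). Its relative Ppargc1a read 49.0, 56.6 and 35.3 CPM against 53.3, 107.2 and 165.2 CPM. Here ACS 2 and ACS 3 were above all controls and ACS 1 was not (1.21, SE 0.41, adjusted p = 0.120). Esrra, a partner receptor of both, read 83.1, 74.0 and 60.8 CPM against 12.4, 44.4 and 57.0 CPM (-0.93, SE 0.48, adjusted p = 0.278). Ppargc1a, Ppargc1b and Esrra were picked after their values were seen.

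Other mitochondrial membrane and matrix genes were read the same way. Of 19 tested, 17 had estimates below 0 (median -0.39) and 1 rose. That was Slc25a5, the adenine nucleotide translocase isoform of growing cells, at 16.1, 14.8 and 14.9 CPM in control and 57.4, 45.4 and 33.7 CPM in ACS. All ACS libraries were above control, and it rose by 1.57 (SE 0.27, adjusted p = 0.0262), a call that was lost without ACS 2, without any 1 control library and without control 3 and ACS 3 together. The muscle isoform Slc25a4, chosen beside it for contrast, read 2455, 2564 and 2118 CPM against 797.2, 1902 and 2402 CPM, with ACS 3 inside the control range (-0.48, SE 0.44, adjusted p = 0.537).

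Fibre type markers were read beside these because slow, oxidative fibres hold more mitochondria. The 6 slow fibre genes all had estimates below 0 (median -0.82, 0 called by edgeR, 2 at an unadjusted p under 0.05). Myh7, the slow myosin, read 2202, 2107 and 1789 CPM in control and 1037, 1688 and 967.4 CPM in ACS. Every ACS library was below every control, with ACS 3 the lowest for this gene. Over the list the medians stood at 44.4% of control in ACS 1, 73.1% in ACS 2 and 47.5% in ACS 3, where the chain members stood at 93.8% in ACS 3. The 5 fast fibre genes had a median of 0.13 (0 called, 0 at an unadjusted p under 0.05). The part of fibre type in the member values was not tested.

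Some members were highest in control 3 and ACS 3, which are the libraries whose descriptions carry the letters ji, of which the meaning is not given. Each was the highest of its group in 22 of the 86 members (25.6%, against 11.7% of all tested genes). Atp5i, a short subunit of the membrane part of ATP synthase, read 32.0, 25.6 and 94.3 CPM in control and 22.9, 13.4 and 63.7 CPM in ACS. Control 3 and ACS 3 were thus the highest of their groups, as they were in Atp5j (46.1, 41.4 and 104.5 against 18.8, 20.5 and 100.7 CPM), Ndufc1 and Uqcrb.

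Across the 86 members, the deviations of control 3 and ACS 3 from their group means correlated at r = 0.70, and over all 12873 tested genes at 0.03. Other pairs of a control and an ACS library correlated over the members as well. They ran up to 0.58 for control 1 with ACS 2 and down to -0.69 for control 2 with ACS 3. The points share libraries and their scaling factors, and deviations within a group sum to 0. These correlations therefore depend on each other and cannot show whether the value is particular to control 3 and ACS 3. A fit with a term for these libraries called 0 members on that term (10 at an unadjusted p under 0.05, and 517 of all 12873 genes) and gave a median ACS log2 fold change of -0.60 with 0 members called. Leaving both libraries out gave a median of -0.87, 0 called, 24 of 87 at an unadjusted p under 0.05 (24.3% of all genes) and 80 members with every ACS library below every control, where 31.2% of all genes were so.

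**Figure D5:**
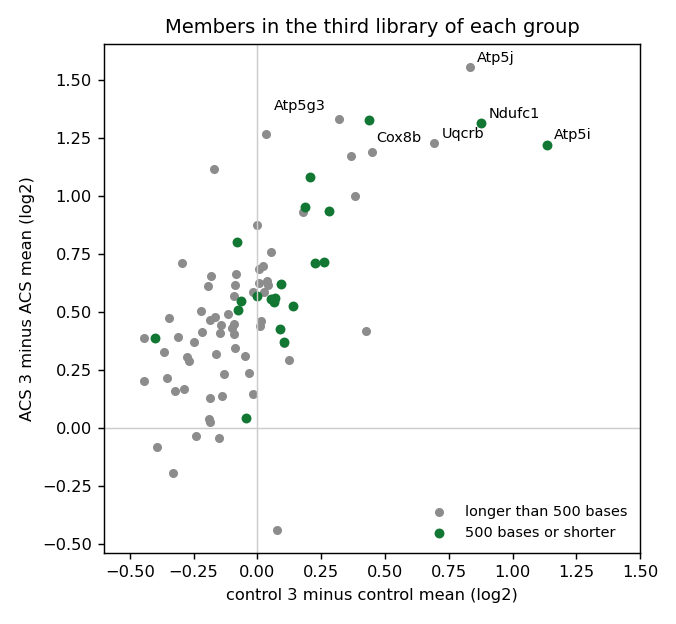
Each point is 1 of the 86 tested members, with control 3 minus the control mean (horizontal axis, log2) and ACS 3 minus the ACS mean (vertical axis, log2); green marks genes of 500 bases or shorter. Points run from lower left to upper right, where Atp5j, Atp5i, Ndufc1, Uqcrb, Cox8b and Atp5g3 are named.

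Many members are short genes, so length was read beside the result. In the 21 tested members of 500 bases or shorter, the median log2 ratio to control was -1.67 in ACS 1 and -0.65 in ACS 2, against -0.30 and -0.18 in 443 other tested genes of that length. Among genes of 1000 to 2000 bases it was -1.32 and -0.42 in 28 members against -0.17 and -0.05 in 3313 other genes. Members lay further below control than other genes in both length ranges and both libraries, while other short genes lay a little below control too. In ACS 3 the short members stood at -0.02 and the other short genes at 0.23.

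Promoter letters and fold changes were set side by side. The 32 members with at least 1 of the 4 motifs had a median log2 fold change of -0.57 and the 39 without had -0.54. The 10 with an NRF1 match stood at -0.48 and the 9 with an ERR match at -0.68. No test was made of these differences.

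Leaving out ACS 3 gave a median of -0.86 and 3 called members (Cox8b, the chromosome 2 row of Cox6b1 and Atp5j, all lower). In that fit 43 of 87 were at an unadjusted p under 0.05. So were 32.6% of all genes, the highest such share among the fits with 1 library left out. Of 86 members, 72 were separated (26.2% of all genes). The share of all genes called in that fit is not given here. Leaving out ACS 1 gave a median of -0.30, 0 called and 80 of 87 estimates below 0. Taken singly, 82 members lay below the control mean in ACS 1, 83 in ACS 2 and 58 in ACS 3. Of all 12873 tested genes, 6673, 6517 and 6365 did so. With library totals instead of TMM factors, which moves the median of all genes to -0.32, the members stood at -0.83 and 58 of 86 were separated, as were 27.3% of all genes.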

How the data were processed

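Libraries were made from total RNA after removal of ribosomal RNA, per the labels. The authors deposited 1 table of read counts and FPKM for each gene. The submitters' processing notes list HISAT2 2.0.4, StringTie 1.3.0 and the build Rnor 6.0. Not given in the sources used here are the counting tool, its strand setting and its handling of reads with several matches. FPKM equalled count over length and column total to within 0.1% in all 12363 genes checked, and gene lengths were taken from that relation.

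Genes passing edgeR's filterByExpr (minimum count 10, minimum total 15) were tested with TMM factors and edgeR's quasi-likelihood test, with Benjamini-Hochberg adjustment over all 12873 and a threshold of 0.05. Standard errors and 95% intervals came from the F statistic. The fits ran in edgeR 4.0.16 (R 4.3.3), with DESeq2 1.42.0 and limma 3.58.1 as alternatives, each tested on simulated data. CPM are TMM-scaled. Isoform ratios used FPKM and an exact permutation test.

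Named members were the isoform set and, per complex, the most abundant by control FPKM and the 3 with the smallest p; others were picked after their values were seen. Members, lists and this rule were chosen with earlier results of these data known. Of 154 list entries 142 were matched. Promoters were matched by symbol or synonym. Alternatives covered scaling, tool, filter, a replicate block, control 3 and ACS 3 and leaving out each library.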

Additional observations from a re-analysis of the deposited data

How the results depend on the processing

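Estimates of 30 named members were recomputed under 17 alternatives, 509 values in all. Of these 501 kept direction and side of the threshold, 1 (Cox8b without ACS 3) passed it and 7 turned. Those were Ndufaf4 with library totals (-0.0317) and with FPKM (-0.0390); without ACS 1, Cox6a1 (0.0887), Cox8a (0.0985) and both Cycs rows (0.0242 on chromosome 18, 0.0126 on chromosome 4); and the chromosome 18 row without ACS 2 (0.0180). Over all libraries left out in turn the estimates ranged from -0.313 to 0.0887 for Cox6a1, -0.564 to 0.0985 for Cox8a, -0.325 to 0.0242 for the chromosome 18 row and -0.615 to 0.0126 for that on chromosome 4. The cause was not tested.

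The number of genes called, 533, was 1749 with DESeq2, 333 with limma-voom, 908 with no filter, 280 with a term for control 3 and ACS 3, 201 without that pair, and between 0 and 1684 when 1 library was left out. The split of 442 higher and 91 lower was 345 and 228 with library totals and 249 and 268 with FPKM. Called members numbered between 0 and 3 when 1 library was left out and 0 under all other alternatives run. The count of separated members, an alternative set chosen after seeing the data, was 58 with library totals and with FPKM, 80 without control 3 and ACS 3, and between 28 and 72 when 1 library was left out (48 without control 3, 72 without ACS 3). Where given above for these settings, the share of all genes separated was higher too. The member share of counts differed by -0.81 percentage points between groups, and by -1.68 as a share of FPKM.

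Same-numbered libraries did not deviate together over all tested genes (correlations -0.07, 0.00 and 0.03). Pairs with different numbers were as near 0, from -0.07 (control 3 with ACS 2) to 0.08 (control 1 with ACS 2). Deviations within a group sum to 0, and this check cannot tell whether the numbers pair libraries. A replicate block gave 505 called genes, 0 called members and a member median of -0.62. For the ratios Cox6a2/Cox6a1 and Cox8b/Cox8a it gave differences of -0.55 and -0.70 with an exact sign-flip p of 0.25. That is the smallest p this test can give with 3 libraries in each group. The Cox7a1 to Cox7a2 ratio was not run. The 95% intervals of most members held both 0 and the median of all members, which limits what can be said of single genes.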
